A study of Homo sapiens with 12 samples.

Results

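MBNL1, MBNL2, CELF1, CELF2, QKI, RBFOX2, KHDRBS1, KHDRBS3, TIA1 and TIAL1 encode RNA-binding proteins that choose between alternative exons. Their own transcripts were examined here in human 293A-TOA cells, a line derived from HEK293A embryonic kidney cells, after knockdown of the splicing factor SFSWAP. Every skipped exon or retained intron listed under these 10 genes was taken if inclusion and skipping reads together averaged at least 10 per library. This gave 208 distinct events. Over the 4 event tables they make 308 of 205584 entries that passed the same rule, namely 147 and 134 skipped exon events without and with UPF1 knockdown, and 12 and 15 retained introns.

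Muscleblind proteins (MBNL1, MBNL2), CELF proteins (CELF1, CELF2), QKI, RBFOX2, the Sam68 family (KHDRBS1, KHDRBS3) and the TIA proteins (TIA1, TIAL1) bind short motifs near exons and raise or lower their inclusion. Many such genes also carry exons with stop codons, called poison exons, whose inclusion turns the transcript into a substrate of nonsense-mediated decay. UPF1, a helicase, is a core factor of that decay pathway, so its knockdown makes such transcripts easier to see.

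Poly(A) RNA was sequenced from 12 libraries in 4 groups of 3 biological replicates. The groups were non-target siRNA (siNT), 40 nM of a mixture of 2 siRNAs against SFSWAP (siSFSWAP), non-target siRNA with 30 nM siRNA against UPF1 (siNT/siUPF1), and both knockdowns together (siSFSWAP/siUPF1). Knockdown lasted 5 days, and all 4 groups, controls included, received 1 µM TG, an inhibitor of O-GlcNAcase, for the last 6 hr. All libraries came from 1 cell line, and the 3 values of a group are given in the order listed by the authors, which carries no replicate number. Libraries are numbered 1 to 3 by that order.

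Read counts summed over all skipped exon events were 25938092 to 40637076 per library. A read can count at several events, both in these sums and in the read levels that follow. SFSWAP itself stood at 52.7, 54.6 and 55.8 RPM (reads-per-million of all reads at exon events listed in both backgrounds) in siNT and 18.3, 26.8 and 20.4 in siSFSWAP, and 46.9, 62.5 and 54.2 against 15.1, 21.1 and 31.0 in the UPF1 knockdown background. UPF1 had 283, 354 and 249 RPM in siNT and 63.4, 86.8 and 112 in siNT/siUPF1. Neither gene overlapped between knockdown and control libraries. Of the 5 markers chosen for the line, KRT8, CDH2 and VIM had reads at exon events in both backgrounds, while the others (KRT18, PAX2) and the 5 markers of other cell types (PTPRC, HBB, ALB, DES, GFAP) could not be read from these events.

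Sequences of changed exons are shown first, since the results refer back to them. Capitals mark the exon and lower case the 20 bases of intron on each side, 5′ to 3′ on the strand of the gene, from the GRCh38 (hg38) reference genome. TIAL1 (chromosome 10, minus strand, 119571802 to 119597029) supplied most of the changed events. It also had many of the tested ones. Without and with UPF1 knockdown it held 20 of 60 and 24 of 60 member exon events tested. Of the introns tested it held 6 of 10 and 9 of 12. The first sequence is coding exon 3 of its MANE transcript (chr10:119582459-119582557), and the other a poison exon in intron 1 (chr10:119593452-119593513).
TIAL1 exon 3, 99 nt: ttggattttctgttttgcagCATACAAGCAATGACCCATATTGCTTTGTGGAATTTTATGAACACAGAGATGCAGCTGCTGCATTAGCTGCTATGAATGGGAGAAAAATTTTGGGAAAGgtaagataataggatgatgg
TIAL1 intron 1 exon, 62 nt: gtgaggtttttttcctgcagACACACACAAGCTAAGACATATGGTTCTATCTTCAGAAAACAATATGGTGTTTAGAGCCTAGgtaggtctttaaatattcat

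KHDRBS1 (chromosome 1, plus strand, 32013868 to 32060850) and TIA1 (chromosome 2, minus strand, 70209444 to 70248660) each had 1 coding exon that changed. In KHDRBS1 it was exon 3 (chr1:32031524-32031640), which lies in the part that encodes the KH domain, the RNA-binding domain of Sam68. In TIA1 it was exon 5 (chr2:70229059-70229091), whose inclusion separates the longer isoform TIA1a from TIA1b.
KHDRBS1 exon 3, 117 nt: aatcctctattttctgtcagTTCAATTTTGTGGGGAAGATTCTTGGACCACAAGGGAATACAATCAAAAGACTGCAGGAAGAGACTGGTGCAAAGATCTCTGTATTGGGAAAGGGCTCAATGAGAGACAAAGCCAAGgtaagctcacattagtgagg
TIA1 exon 5, 33 nt: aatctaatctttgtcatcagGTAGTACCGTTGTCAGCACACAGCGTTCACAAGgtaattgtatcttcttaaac

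SFSWAP knockdown under TG changed exons of TIAL1, KHDRBS1 and TIA1. Inclusion of TIAL1 exon 3, KHDRBS1 exon 3 and TIA1 exon 5 fell, and inclusion of the poison exon in TIAL1 intron 1 rose. Of 60 member skipped exon events that could be tested, 3 rose and 4 fell, or 11.7%, against 11.8% of all 33839 skipped exon events tested (7.78% rose and 4.03% fell). The share among these genes was therefore close to the background. The libraries of both groups did not overlap at 10 of the 60 member events, or 16.7%, and at 26.0% of all events. Here an inclusion level is the share of the form that contains the exon or intron, from 0 to 1, after each form's reads are divided by its effective length. An event was called where a moderated quasi-binomial regression gave an adjusted p of at most 0.05 over all events of that type.

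In the UPF1 knockdown background, 0 of 60 member skipped exon events rose and 8 fell, or 13.3%, against 7.48% of all 34006 events (4.08% rose and 3.4% fell). All 8 were forms of exons in TIAL1 or KHDRBS1, and several forms of 1 exon share their skipping reads. The groups did not overlap at 15 of the 60 member events and at 21.6% of all events. The median difference in inclusion level was -0.0158 over the members and 0.00113 over all events, against -0.00427 and 0.00424 without UPF1 knockdown. For each comparison the spread of an event was taken from the trend over all skipped exons. With each event's own spread no event was called, neither in these genes (0 of 60 in both backgrounds) nor among all 33839 and 34006 events, and limma on the log2 odds called 3 and 0 of the members.

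**Figure D1:**
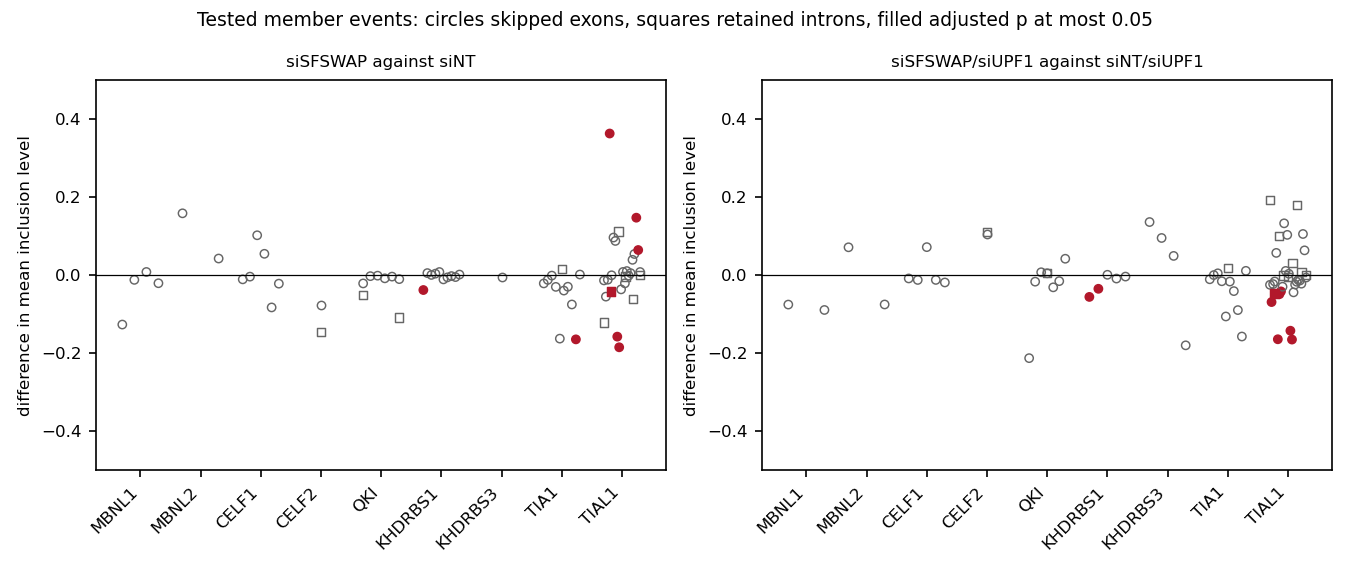
Difference in mean inclusion level (knockdown minus control) for each tested event of 9 genes, without (left) and with (right) UPF1 knockdown. Circles are skipped exons, squares retained introns, and filled red symbols events with an adjusted p of at most 0.05. The filled symbols lie in TIAL1, KHDRBS1 and TIA1 on the left and in TIAL1 and KHDRBS1 on the right, and RBFOX2 had no tested event.

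TIAL1, also called TIAR, encodes a protein of stress granules with several RNA recognition motifs, and exon 3 encodes part of the first of them. Reads that skipped exon 3 numbered 1, 3 and 6 in siNT and 36, 21 and 59 in siSFSWAP. Inclusion levels were 0.994, 0.986 and 0.967 in siNT against 0.816, 0.896 and 0.761 in siSFSWAP. Every siSFSWAP library lay below every siNT library, and the log2 odds ratio was -3.58 (SE 0.79, adjusted p = 8.02e-08).

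With UPF1 also depleted, 0, 9 and 10 reads skipped TIAL1 exon 3 in siNT/siUPF1 and 35, 36 and 47 in siSFSWAP/siUPF1. The levels were 1.0, 0.959 and 0.956 against 0.815, 0.857 and 0.815, again without overlap, with a log2 odds ratio of -2.75 (SE 0.65, adjusted p = 2.92e-05). A longer form of the exon, 150 nt, starts upstream at 119582608 and ends at the same donor. It is read against the same skipping reads and gave -3.80 (adjusted p = 5.13e-09) and -2.92 (adjusted p = 5.97e-06). Skipping kept the frame, with 342 codons in place of 375.

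A 68-nt poison exon in TIAL1 intron 5, between exons 5 and 6, and longer exons that share its edges fell on SFSWAP knockdown when UPF1 was depleted. Inclusion levels of the 68-nt exon were 0.273, 0.404 and 0.263 in siNT/siUPF1 and 0.121, 0.177 and 0.149 in siSFSWAP/siUPF1, with no overlap and a log2 odds ratio of -1.39 (SE 0.27, adjusted p = 1.02e-05). Without UPF1 knockdown the levels were 0.160, 0.235 and 0.220 against 0.103, 0.191 and 0.155, and the log2 odds ratio of -0.61 did not pass (SE 0.28, adjusted p = 0.145). These groups overlapped. The test of the difference between both backgrounds gave -0.79 (SE 0.37, adjusted p = 0.759), so the effect was not shown to depend on UPF1.

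The reading frame of TIAL1 meets a stop codon in the 68-nt exon, leaving 134 codons in place of 375. This exon had a mean level of 0.205 ± 0.0399 (SD, n = 3) in siNT and 0.314 ± 0.0787 in siNT/siUPF1. The log2 odds ratio was 0.77 and did not pass (SE 0.27, adjusted p = 0.143). These groups did not overlap, and the call was made only when siNT/siUPF1 library 3 was left out (0.93, adjusted p = 0.0441). In siSFSWAP cells UPF1 knockdown gave -0.0138 (SE 0.28, adjusted p = 1.0). SFSWAP-depleted cells thus had levels of 0.103 to 0.191 whether or not UPF1 was depleted.

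Longer exons in the same intron that share edges with the 68-nt exon fell as well in the UPF1 knockdown background. They were named after their values were seen, to complete the count. The 172-nt form had a log2 odds ratio of -1.84 (adjusted p = 2.09e-04), the 376-nt form of -0.83 (adjusted p = 0.0237) and the 395-nt form of -0.87 (adjusted p = 0.0270). All of these TIAL1 exons overlap and are read against the same skipping reads, 200, 158 and 179 in siNT/siUPF1 and 220, 198 and 223 in siSFSWAP/siUPF1. They are therefore 1 observation on this intron rather than 4.

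Under TG alone, the 376-nt form was also listed between exon 5 and an alternative acceptor of exon 6. There skipping reads were 5, 4 and 5 in siNT against 0, 0 and 0 in siSFSWAP, which was called as a rise (adjusted p = 0.0334). With so few reads of the skipping form in TIAL1, only these counts are given.

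The poison exon in TIAL1 intron 1 rose. Inclusion of the 62-nt form was 0.162, 0.236 and 0.254 in siNT and 0.367, 0.363 and 0.364 in siSFSWAP, a log2 odds ratio of 1.11 (SE 0.30, adjusted p = 3.55e-03) with no overlap between groups. A 99-nt form that starts at 119593550 rose by 1.46 (SE 0.53, adjusted p = 0.0446) against the same skipping reads, which were 178, 137 and 92 in siNT against 103, 67 and 74 in siSFSWAP. Both forms hold a stop codon in the frame of TIAL1, at base 53 (28 codons in all) and base 50 (27 codons).

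In the UPF1 knockdown background the 62-nt exon of TIAL1 stood at 0.321, 0.329 and 0.389 in siNT/siUPF1 and at 0.433, 0.535 and 0.387 in siSFSWAP/siUPF1. These groups overlapped, and the log2 odds ratio was 0.62 (SE 0.34, adjusted p = 0.294). The 62-nt exon in intron 1 and the 68-nt exon in intron 5 of TIAL1 thus had log2 odds ratios of opposite sign in both backgrounds. The intron 1 exons were named after their values were seen.

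**Figure D2:**
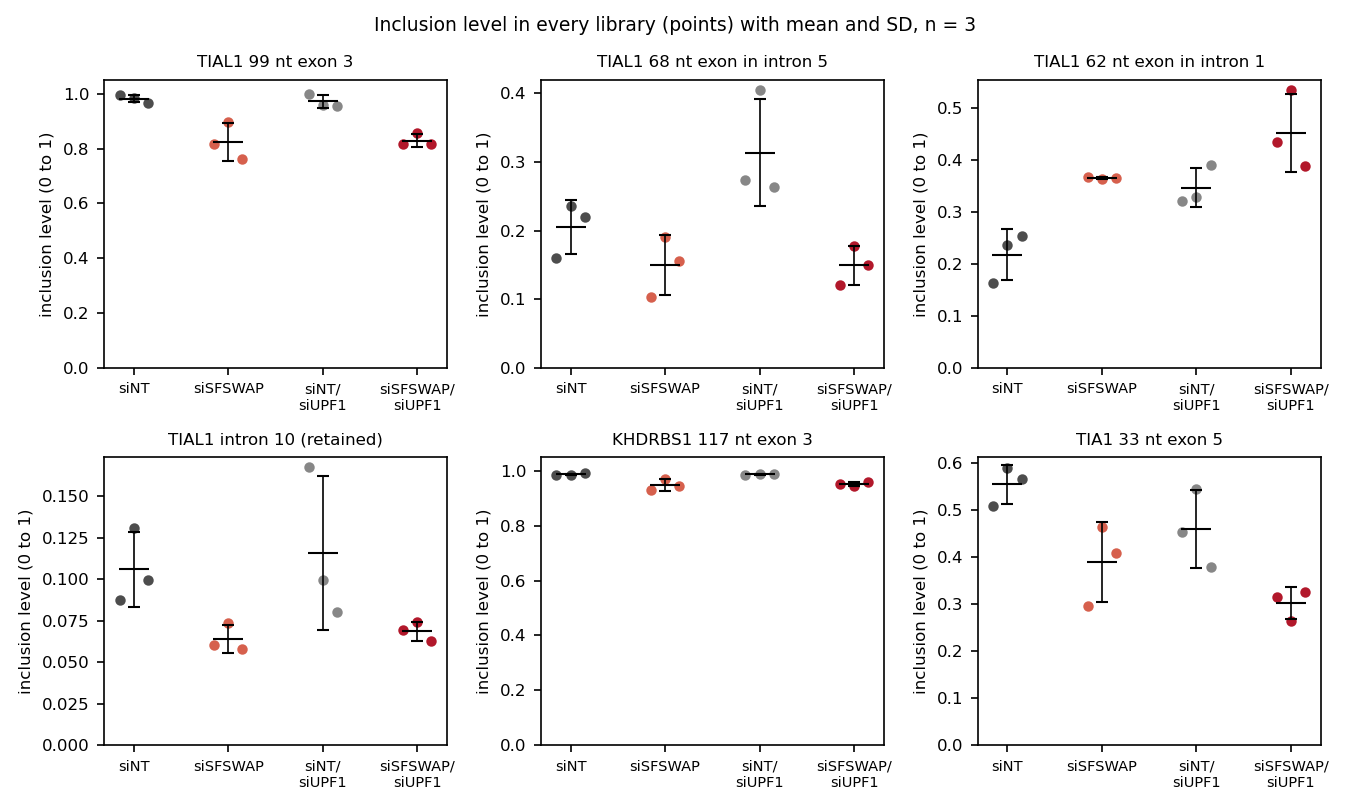
Inclusion level (0 to 1) of 6 events in each of 12 libraries (points), with the mean and SD of each group as a horizontal bar and whiskers. Means of TIAL1 exon 3, the 68-nt TIAL1 exon, TIAL1 intron 10, KHDRBS1 exon 3 and TIA1 exon 5 are lower after SFSWAP knockdown. That of the 62-nt TIAL1 exon is higher. The 68-nt exon was not called without UPF1 knockdown, and the 62-nt exon and TIA1 exon 5 were not called with it. The vertical scales differ between panels and all start at 0.

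Retained introns were fewer. Under TG, 1 of 10 member introns tested fell and 0 rose, against 10.1% of all 5845 introns (1.13% rose and 9.02% fell). With UPF1 depleted, 1 of 12 fell and 0 rose, or 8.33%, against 4.39% of 5105 introns (1.16% rose and 3.23% fell). Both calls were intron 10 of TIAL1 (119576751 to 119577079, 329 nt). Its retention level was 0.0873, 0.131 and 0.0994 in siNT and 0.0602, 0.0734 and 0.0577 in siSFSWAP, a log2 odds ratio of -0.83 (SE 0.19, adjusted p = 4.16e-03).

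In the UPF1 knockdown background, retention of TIAL1 intron 10 was 0.168, 0.0994 and 0.0799 against 0.0695, 0.0739 and 0.0626 (-0.79, SE 0.23, adjusted p = 0.0441). Library 1 of siNT/siUPF1 lay above the others. Without it the log2 odds ratio was -0.41 (adjusted p = 0.309), and the call was also lost without any 1 of the siSFSWAP/siUPF1 libraries (adjusted p = 0.104 to 0.244). A 59-nt exon with a stop codon lies inside this intron of TIAL1 (119576847 to 119576905), and its inclusion levels were 0.0178, 0.0313 and 0.0326 in siNT against 0.00820, 0.0199 and 0.0123 in siSFSWAP (-1.09, SE 0.59, adjusted p = 0.220). Reads on that exon also fall in the intron, and their part in its retention level was not tested.

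**Figure D3:**
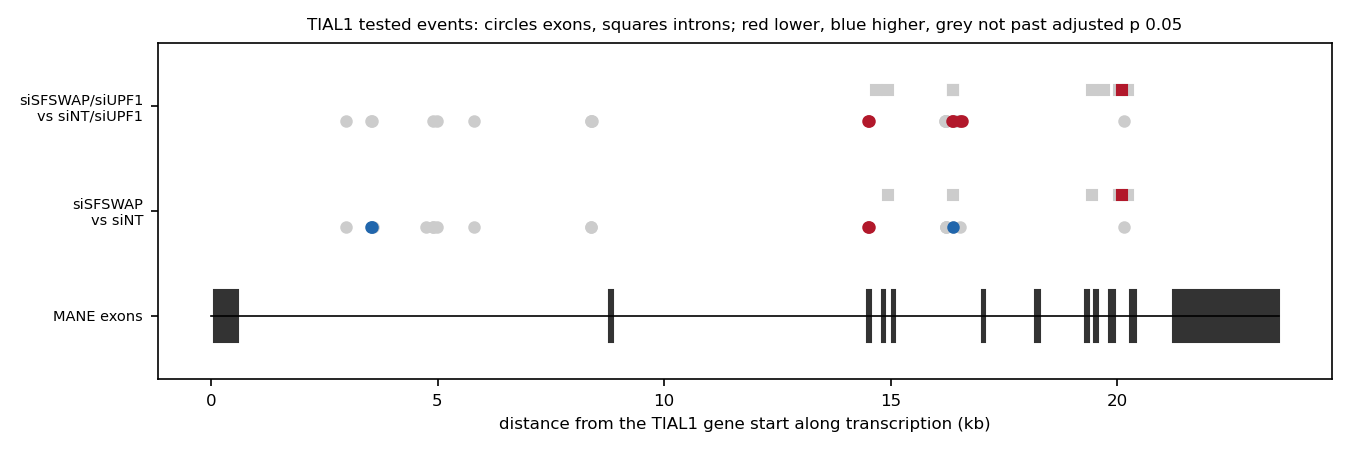
Position of every tested TIAL1 event along the gene, as distance in kb from the gene start in the direction of transcription, above the 12 exons of the MANE transcript (black boxes). Circles are exons and squares introns, red ones fell, blue ones rose and grey ones did not pass an adjusted p of 0.05. Calls lie in intron 1, at exon 3, in intron 5 and at intron 10.

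KHDRBS1 encodes Sam68, an RNA-binding protein that dimerises through its KH domain region. Its exon 3 was skipped in few transcripts and more often after SFSWAP knockdown. Skipping reads were 9, 14 and 10 in siNT against 65, 31 and 57 in siSFSWAP, and levels were 0.987, 0.986 and 0.991 against 0.930, 0.972 and 0.947. The groups did not overlap, with a log2 odds ratio of -2.13 (SE 0.49, adjusted p = 4.15e-05).

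With UPF1 depleted, skipping reads of KHDRBS1 exon 3 were 16, 11 and 13 in siNT/siUPF1 and 46, 57 and 49 in siSFSWAP/siUPF1. Levels were 0.985, 0.989 and 0.989 against 0.951, 0.946 and 0.961 (-1.99, SE 0.51, adjusted p = 6.60e-04), again without overlap. A 138-nt form with an upstream acceptor (32031503) fell likewise against the same skipping reads (-1.98, adjusted p = 5.20e-04). Exon 3 holds whole codons, so the product would go from 443 to 404 codons. The difference in level was small, -0.0384 and -0.0353.

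TIA1 encodes the closest relative of TIAL1, a protein of stress granules that binds U-rich sequence downstream of donor sites. Its 33-nt exon 5 was included at 0.509, 0.589 and 0.566 in siNT and at 0.296, 0.464 and 0.410 in siSFSWAP. The groups did not overlap, and the log2 odds ratio was -0.98 (SE 0.33, adjusted p = 0.0325). The call was lost without siNT library 2 or 3 (adjusted p = 0.113 and 0.0950) and without siSFSWAP library 1 or 3 (adjusted p = 0.237 and 0.0639).

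With UPF1 depleted, TIA1 exon 5 was included at 0.454, 0.545 and 0.380 in siNT/siUPF1 and at 0.316, 0.263 and 0.326 in siSFSWAP/siUPF1. These groups did not overlap either, but the log2 odds ratio of -0.92 did not pass (SE 0.34, adjusted p = 0.0661). It passed without siNT/siUPF1 library 3 (-1.19, adjusted p = 0.0177). Skipping shortens the reading frame of TIA1 from 386 to 375 codons. Of its 10 tested exon events in each background, the other 9 were not called in either, and neither was its tested intron (adjusted p = 0.699 and 0.758).

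TIA1 and TIAL1 both carry a small poison exon, and these exons resemble each other. They and the later exon pairs are shown for their likeness and were chosen after their sequences were seen. The global alignment of the TIA1 66-nt exon (chr2:70225328-70225393) with the TIAL1 69-nt exon (chr10:119580778-119580846) matched 45 of 69 columns, or 65.2%. In both, a stop codon lies in frame at base 35.
TIA1 poison exon, 66 nt: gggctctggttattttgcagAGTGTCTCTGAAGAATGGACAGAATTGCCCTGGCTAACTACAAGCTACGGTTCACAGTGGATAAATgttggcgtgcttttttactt
TIAL1 poison exon, 69 nt: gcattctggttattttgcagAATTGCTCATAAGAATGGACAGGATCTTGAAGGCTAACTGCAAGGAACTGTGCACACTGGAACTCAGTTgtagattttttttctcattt

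Neither of this pair was called. The TIA1 exon had levels of 0.0476 to 0.0630 in siNT, 0.0263 to 0.0674 in siSFSWAP, 0.0179 to 0.0578 in siNT/siUPF1 and 0.0419 to 0.0562 in siSFSWAP/siUPF1, with all groups overlapping. The TIAL1 69-nt exon, between exons 5 and 6, had levels of 0.0257 to 0.0665 in siNT, 0.0223 to 0.0769 in siSFSWAP, 0.0369 to 0.0953 in siNT/siUPF1 and 0.0158 to 0.0615 in siSFSWAP/siUPF1.

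MBNL1 and MBNL2, the muscleblind proteins sequestered by CUG repeats in myotonic dystrophy, had 4 and 2 exon events that could be tested under TG and 2 each with UPF1 depleted. None was called, and the lowest adjusted p-values were 0.121 and 0.234 under TG and 0.447 and 0.512 with UPF1 depleted. MBNL1 exon 4 (204 nt, chromosome 3, 152432717 to 152432920), its tested exon with most reads, was included at 0.918, 0.918 and 0.967 in siNT, 0.963, 0.924 and 0.939 in siSFSWAP, 0.949, 0.908 and 0.985 in siNT/siUPF1, and 0.838, 0.967 and 0.810 in siSFSWAP/siUPF1. The groups overlapped in both comparisons, with log2 odds ratios of 0.0962 (SE 1.03) and -1.32 (SE 0.96).

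For MBNL2 the tested exon with most reads was the 95-nt exon (chromosome 13, 97366459 to 97366553). It was included at 0.970, 0.833 and 0.986 in siNT, 0.937, 1.0 and 0.980 in siSFSWAP, 1.0, 0.970 and 0.950 in siNT/siUPF1, and 1.0, 0.881 and 0.813 in siSFSWAP/siUPF1, with overlap throughout. These rest on 0 to 5 skipping reads per library.

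MBNL proteins repress a 54-nt exon in their own transcripts, which encodes part of the nuclear localisation signal. It is shown for both genes (MBNL1, chr3:152446704-152446757; MBNL2, chr13:97356796-97356849), and its letters matched at 45 of 54 positions, or 83.3%.
MBNL1 54-nt exon: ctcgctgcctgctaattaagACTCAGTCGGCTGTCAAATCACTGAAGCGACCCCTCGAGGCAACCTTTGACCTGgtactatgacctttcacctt
MBNL2 54-nt exon: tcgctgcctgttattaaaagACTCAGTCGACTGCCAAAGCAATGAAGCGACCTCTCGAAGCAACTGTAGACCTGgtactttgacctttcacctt

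The MBNL2 54-nt exon was included at 0.577, 0.488 and 0.838 in siNT, 0.683, 0.756 and 0.938 in siSFSWAP, 0.493, 0.570 and 0.711 in siNT/siUPF1, and 0.672, 0.655 and 0.660 in siSFSWAP/siUPF1. The groups overlapped in both comparisons (adjusted p = 0.234 and 0.758). In MBNL1 the matching exon was included at 0.905 to 1.0 in all 12 libraries and had too few skipping reads for a test of SFSWAP knockdown. The 54-nt exons were named after their values were seen.

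CELF1 and CELF2, which bind GU-rich sequence and often act against the muscleblind proteins, had no called exon or intron. CELF1 had 6 exon events tested under TG and 5 with UPF1 depleted (lowest adjusted p = 0.373 and 0.739). Its exon 8 (80 nt, chr11:47483453-47483532) was included at 0.985, 0.994 and 0.992 in siNT, 0.994, 0.977 and 0.967 in siSFSWAP, 0.972, 0.984 and 0.990 in siNT/siUPF1, and 0.955, 0.965 and 1.0 in siSFSWAP/siUPF1. All these groups overlapped. Exon 6 of CELF2 (80 nt, chr10:11266598-11266677) matched 63 of 80 letters, or 78.8%.
CELF1 exon 8, 80 nt: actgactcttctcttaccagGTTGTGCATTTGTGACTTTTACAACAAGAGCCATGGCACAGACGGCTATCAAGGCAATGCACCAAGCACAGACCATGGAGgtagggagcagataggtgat
CELF2 exon 6, 80 nt: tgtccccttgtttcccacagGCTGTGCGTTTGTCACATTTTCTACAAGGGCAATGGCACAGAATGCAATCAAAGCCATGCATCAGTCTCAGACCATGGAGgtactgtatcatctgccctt

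CELF2 had 1 exon event tested in each background. Its exon 3 (83 nt, chromosome 10, 11217425 to 11217507) was skipped by 0, 0 and 0 reads in siNT and by 4, 2 and 5 in siSFSWAP, with levels of 1.0 in each siNT library and 0.902 to 0.948 in siSFSWAP. The groups did not overlap, yet the adjusted p was 0.243. In the UPF1 knockdown background the same exon had too few skipping reads for a test, with levels of 0.897 to 0.967 in siNT/siUPF1 and 0.946 to 1.0 in siSFSWAP/siUPF1.

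A 1358-nt intron of CELF2 (chromosome 10, 11329098 to 11330455) was retained at 0.10, 0.439 and 0.244 in siNT and 0.0682, 0.169 and 0.109 in siSFSWAP, and at 0.220, 0.166 and 0.142 against 0.250, 0.384 and 0.226 with UPF1 depleted. It was not called in either comparison (adjusted p = 0.191 and 0.452). The groups overlapped under TG and did not with UPF1 depleted. This intron, outside the coding region, was named after its values were seen.

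QKI, a KH domain protein that binds ACUAA-type motifs, had 6 and 7 exon events tested with none called (lowest adjusted p = 0.405 and 0.201), and 2 and 1 introns with none called. Its exon 4 (144 nt, chromosome 6, 163534982 to 163535125) was included at 0.996, 0.984 and 0.964 in siNT, 0.968, 0.978 and 0.986 in siSFSWAP, 1.0, 0.998 and 0.989 in siNT/siUPF1, and 0.987, 0.982 and 0.971 in siSFSWAP/siUPF1. The groups overlapped under TG and did not overlap with UPF1 depleted (-2.12, SE 1.23, adjusted p = 0.244).

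KHDRBS3, the neural and testis relative of Sam68, had 1 exon event tested under TG and 4 with UPF1 depleted, with none called (lowest adjusted p = 0.929 and 0.246). Exon 7 (83 nt), the tested exon with most reads, was included at 0.907, 0.702 and 0.620 in siNT/siUPF1 and 1.0, 0.697 and 0.940 in siSFSWAP/siUPF1, which overlapped. RBFOX2, a regulator that binds UGCAUG, had 3 exon events in each background and none with enough reads of both forms for a test. Its 51-nt exon 2 was skipped by 0 to 2 reads in any library.

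UPF1 knockdown called no member event. Events were counted separately in the libraries with and without UPF1 knockdown, so UPF1 status cannot be told apart from that division. In siNT cells 0 of 50 skipped exon events passed, against 1.52% of all events, and 0 of 10 introns, against 0.0659%. At an unadjusted p under 0.05 there were 5 exon events (11.5% of all events) and 0 introns (10.3% of all introns). In siSFSWAP cells 0 of 51 exon events passed, against 0.0388%, and 0 of 9 introns, against 0.0995%, with 0 exon events (4.96%) and 1 intron (4.91%) at an unadjusted p under 0.05. The SFSWAP effect was not called as different between the backgrounds for any of 66 exon events (0.149% of all events) or 11 introns (0.0582% of all introns), with 3 exon events (6.4%) and 1 intron (6.46%) at an unadjusted p under 0.05. limma also called 0 in each of these.

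The read level of each gene was its reads at exon events listed in both backgrounds, in RPM as defined above, and is compared only within a gene. CELF2 stood at 4.23, 5.38 and 6.80 in siNT and 10.7, 10.1 and 12.6 in siSFSWAP, a ratio of 2.03 between means, and at 5.45, 8.70 and 8.66 against 11.8, 10.6 and 13.5 with UPF1 depleted, a ratio of 1.57. QKI stood at 147, 156 and 185 against 195, 211 and 236, a ratio of 1.32, and at 203, 191 and 211 against 240, 223 and 236, a ratio of 1.16. Neither CELF2 nor QKI overlapped in either comparison (exact two-sided permutation p = 0.1, the smallest that 3 against 3 libraries allow).

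For the other 8 genes the groups overlapped in both SFSWAP comparisons, with ratios of 0.791 to 1.27. With all events of each table in place of those listed in both, TIAL1 with UPF1 depleted had a ratio of 1.06 without overlap (exact permutation p = 0.1). Of all 9349 genes measured this way, 32.1% did not overlap under TG (18.6% higher, 13.5% lower) and 20.4% with UPF1 depleted (6.59% higher, 13.8% lower). The 2 of 10 members without overlap, CELF2 and QKI, were both higher. The matching shares of all genes are thus 18.6% higher under TG and 6.59% higher with UPF1 depleted. Whether the members differ from these shares was not tested, and 10 genes are few for that. In bulk RNA a change in all cells and a change in some of them cannot be told apart.

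UPF1 knockdown in siNT cells left QKI (ratio 1.24) and TIA1 (ratio 1.13) higher without overlap, against 25.6% of all genes without overlap in either direction. In siSFSWAP cells it left TIAL1 higher without overlap, at 165, 173 and 169 against 143, 139 and 150 (ratio 1.18), against 22.4% of all genes. The exact p was 0.1 for each.

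**Figure D4:**
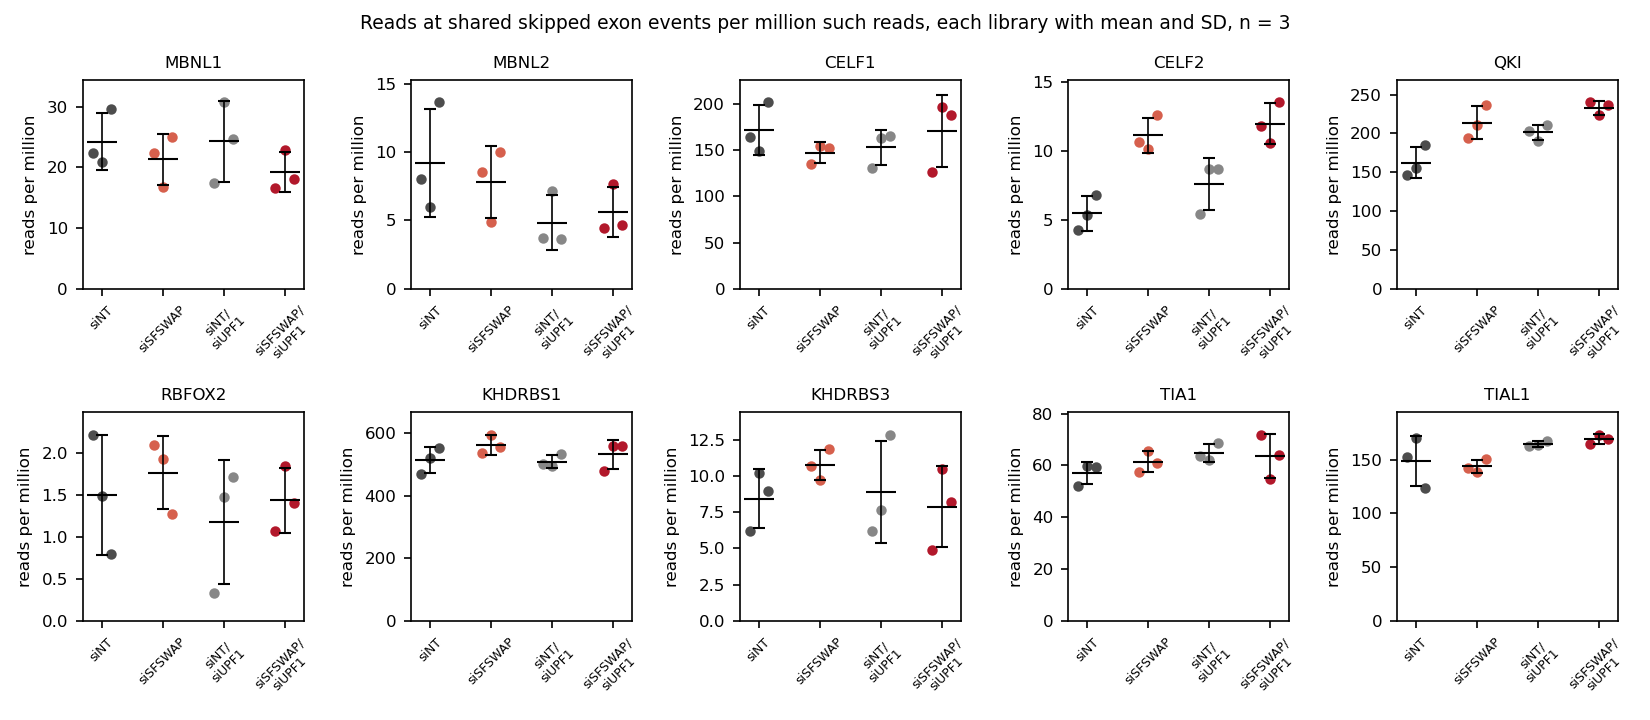
Read level (RPM at exon events listed in both backgrounds) of the 10 genes in each of 12 libraries (points), with the mean and SD of each group. CELF2 and QKI lie higher after SFSWAP knockdown without overlap in both backgrounds, and the other genes overlap. Scales differ between genes and start at 0.

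Motifs of each family were looked for in the exons tested and in 200 bases of intron on each side, on the sense strand alone. The letters were TGCT for MBNL, TGTGT for CELF, ACTAA for QKI, TTTTTT for TIA and TAAAA for the Sam68 family. A gene's own family motif was found at 6 of 6 MBNL exons, 7 of 7 CELF exons, 6 of 8 QKI exons, 29 of 32 exons of TIA1 and TIAL1 and 10 of 11 exons of KHDRBS1 and KHDRBS3. Among all 40545 tested exons the same motifs were found at 93.5%, 57.8%, 30.5%, 45.9% and 57.4%. Many member exons overlap and share these windows, so the counts are no independent exons.

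At the changed exons printed above, TTTTTT lay upstream of TIAL1 exon 3 (1 match) and downstream of TIA1 exon 5 (2 matches). It also lay upstream of the 62-nt TIAL1 exon (3 matches, of which 2 overlap each other). Upstream of KHDRBS1 exon 3, TAAAA occurred at 2 places. Printed exons that were not called had matches too. TTTTTT lay downstream of the TIAL1 69-nt exon (4 matches) and on each side of the TIA1 66-nt exon (1 match each). TGCT lay upstream of the MBNL2 54-nt exon (3 matches). Matches of a longer run of T overlap each other and are counted separately.

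Further lists give the surroundings of these genes. Of 24 other regulators of the same kind, 6 had tested exons under TG, with 1 event higher and 1 lower of 22, or 9.09%, against 11.8% of all events, and 3 of 8 introns lower, all in PTBP1, against 9.02% of all introns. The median difference in level of the exon events was 0.0117, against 0.00424 over all events. With UPF1 depleted, 0 of 16 exon events (7.48% of all events) and 1 of 8 introns were called, the intron lower (3.23% of all introns). PTBP1 encodes the polypyrimidine tract binding protein. Its intron with the lowest adjusted p under TG spanned, together with its flanking exons, chromosome 19, 804250 to 804702 (-1.16, SE 0.27, adjusted p = 0.00357). The one with UPF1 depleted spanned, again with its flanking exons, 804052 to 804438 (-0.82, SE 0.14, adjusted p = 5.34e-04). A 34-nt exon at 807869 to 807902 fell under TG (-1.37, SE 0.50, adjusted p = 0.0374). ELAVL1, which encodes HuR, had an exon that rose (7967565 to 7967626, 1.54, SE 0.58, adjusted p = 0.0479). PTBP2, HNRNPLL and ESRP2 had no call.

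A list of 24 gene symbols known as targets of the members was read, in which H2AFY and MACROH2A1 name the same gene. A gene stands here for all its events, not for its known target exon alone. Of these symbols, 21 had tested exons. Under TG, 6 events were higher and 16 lower of 194, or 11.3%, against 11.8% of all events (7.78% higher, 4.03% lower). With UPF1 depleted, 4 were higher and 10 lower of 167, or 8.38%, against 7.48% of all events (4.08% higher, 3.4% lower). In total, both shares were near those over all events. By direction, more of these events were lower than higher in each comparison, while among all events more were higher. Several events of a gene can share reads, so they are not independent, and the direction was not tested. The median differences in level were 0.00177 and -0.00424, against 0.00424 and 0.00113 over all events. FAS exon 6 (chromosome 10, 89010753 to 89010815), whose inclusion TIA1 is known to promote, fell in both backgrounds, with differences in level of -0.277 (log2 odds ratio -2.14, SE 0.53, adjusted p = 3.66e-04) and -0.301 (-2.13, SE 0.50, adjusted p = 2.70e-04). An exon of ESYT2, an extended synaptotagmin gene (chromosome 7, 158752781 to 158752843, -1.69, SE 0.39), fell under TG. With UPF1 depleted, exons of MAP3K7 (-2.36, SE 0.57) and PICALM (-0.81, SE 0.23, with overlapping groups) fell. These exons of ESYT2, MAP3K7 and PICALM were named by their adjusted p, not as known target exons. No intron of these targets was called (0 of 8 and 0 of 10).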

How the data were processed

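Reads had been trimmed with cutadapt 1.9.1 and aligned with STAR 2.7 to GRCh38.p8 (submitters' processing notes), with predicted decoy exons added to the annotation, and rMATS counted events by junction and exon reads. The values used here are the authors' raw read counts of each form of an event, 3 libraries in 1 cell, and the effective length of each form. The deposited p-values, FDR and inclusion level differences are the authors' own comparisons and were not used. The side of each table was taken from the study's definition, siNT minus siSFSWAP.

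The members and lists were chosen with earlier results of these data known. Events needed 10 or more reads in the average library and, for tests, at least 10 reads of each form over the libraries fitted. Inclusion against skipping reads was fitted per event by quasi-binomial regression over all events of a type. The dispersion was moderated with limma 3.58.1 (R 4.3.3) along a trend on depth and floored at 1. F tests were two-sided, adjusted by Benjamini-Hochberg. UPF1 comparisons used events in both tables. Read levels, annotation (GENCODE 44, MANE) and sequences were handled in Python 3.11.15 with pysam 0.24.0. Read levels were compared by exact permutation. Splice site dinucleotides stood at the edges of 189 of 192 member exon events and 16 of 16 introns. The fit was tested on simulated data.

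Named for each member were called events, at most the 3 with the lowest adjusted p per gene and event type, otherwise the tested exon with most reads, and for each list the 4 genes with the lowest adjusted p per SFSWAP comparison. Exceptions are stated, and some items that the rule names are not reported here. The fit tests differences between libraries of 1 line, so the p-values do not reach beyond these cultures. For skipped exons under SFSWAP knockdown they rest on the spread of the trend over all events, not on the event's own spread between cultures.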

Additional observations from a re-analysis of the deposited data

How the results depend on the processing

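No paired analysis was possible because the 3 values of a group in the tables carry no replicate number. The number of member events called (main values 7 and 8 skipped exons and 1 and 1 introns, without and with UPF1 knockdown) was 1, 0, 0 and 0 with an added difference in level of at least 0.2, 3, 0, 0 and 0 with limma on the log2 odds, and 0 in all 4 with each event's own dispersion, which called 0 of all events too. Without a filter 4 skipped exons were called under TG, and with a common dispersion prior or a minimum of 30 reads the intron with UPF1 depleted was not called (0). Leaving out 1 library gave 4 to 7 and 6 to 10 skipped exons, 1 to 1 and 0 to 1 introns, and 0 to 1 skipped exons for UPF1 knockdown in siNT cells. The count of 4 under TG came without siNT library 1 or 3 or siSFSWAP library 1 or 3, the 0 introns without siNT/siUPF1 library 1 or any siSFSWAP/siUPF1 library, and the 1 exon for UPF1 knockdown without siNT/siUPF1 library 3. The causes were not tested.

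Values with no call changed sign as follows. CELF1 exon 8 with UPF1 depleted was 0.48 by limma and 0.17 without siSFSWAP/siUPF1 library 2, and -1.23 to 0.17 over all left-out libraries. MBNL1 exon 4 under TG was -0.0961 and -0.17 without siNT library 1 and 2, and -0.16 without siSFSWAP library 1 (-0.17 to 0.58 over all). QKI exon 4 under TG was 0.32 and 0.17 without siNT library 1 and 2, and 0.29 without siSFSWAP library 1 (-1.03 to 0.32 over all). The 68-nt TIAL1 exon under UPF1 knockdown in siSFSWAP cells was 0.0191 by limma, 0.24 and 0.0151 without siSFSWAP library 2 and 3, and 0.14 without siSFSWAP/siUPF1 library 1 (-0.26 to 0.24 over all). The log2 ratio of the KHDRBS3 read level with UPF1 depleted was 0.0940 with all events of its table. The cause was not tested for any of these. For UPF1 knockdown, read levels with all events set different events side by side, because the tables list different ones. In siNT cells the ratio was then 0.369 for MBNL1 and 0.150 for MBNL2 without overlap, and for TIAL1 in siSFSWAP cells it was 1.02 with overlap. Depth limited the tests to events with at least 10 reads of each form, which 60 of 147 and 60 of 134 member exon events had.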
